A study of Mus musculus with 6 samples.

Results

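The genes described here encode the proteins of the cytosolic ribosome. They were chosen by symbol from an expression array table: every probe set annotated with a single symbol of the Rpl or Rps pattern, or with Rplp0, Rplp1, Rplp2 or Rpsa, was kept, pseudogenes were left out, and the brightest probe set over the 6 arrays stood for a gene. This gave 61 genes of the 19937 tested, made up of 33 large subunit genes, 21 small subunit genes and 7 genes named as paralogs of a subunit gene. The choice used symbols and mean signal, and no difference between groups. Another 17 ribosomal protein symbols, among them Rpl3, Rpl11, Rpl39 and Rps27, occurred only on probe sets that list several symbols, so no value is given for those genes.

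The samples were plasmacytoid dendritic cells (pDCs), the dendritic cells known for secreting type I interferon, taken from mouse spleen as B220+ SiglecH+ cells. There were 3 samples labelled IRF8 KO and 3 labelled WT. IRF8 is a transcription factor of the dendritic cell and monocyte lineages, and the series title names the control of late pDC differentiation and the repression of MYC as the questions. The labels do not describe the Irf8 allele, how it was deleted, the strain, or the age of the mice, nor say if the 3 samples of a genotype are separate mice. The p-values therefore speak of the scatter among these arrays, part or all of which may be technical. Whole sorted populations were measured, so fewer cells of a type and less RNA per cell cannot be told apart.

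A ribosome is built from a small subunit, which reads the mRNA, and a large subunit, which joins the amino acids, and every subunit holds ribosomal RNA and a set of proteins present in a single copy each, apart from the stalk proteins. The mRNAs of these proteins begin with a run of pyrimidines, and their translation is controlled together by mTOR. MYC is known in other cells to raise the transcription of ribosomal genes, and splenic pDCs of the mature type divide little. Some ribosomal proteins have paralogs with a restricted tissue range.

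The arrays were comparable in overall level, with medians of 5.53 to 5.56 log2 units. The first principal component (52.8% of the variance) separated the genotypes, and on the second (23.4%) KO replicate 1 and WT replicate 1 scored 37.4 and 16.3, with the other arrays between -16.8 and -8.2. Irf8 itself measured 10.48 ± 0.32 in KO and 10.14 ± 0.15 in WT (SD, n = 3 each; limma adjusted p = 0.425), which neither checks nor contradicts the labels because the part of the gene that was altered is not given. Myc measured 9.69, 8.37 and 8.61 in KO, against 5.90, 5.92 and 6.20 in WT, and was 7.39-fold higher in KO (limma adjusted p = 0.00289). KO replicate 1 stood apart in markers of other states. There 29 cell cycle genes had a median shift from the WT mean of 1.94 log2 units, against 0.45 and 0.36 in KO replicates 2 and 3. In 9 neutrophil genes the shifts were 2.90, 0.42 and 0.06. All 29 cell cycle differences were positive (median 1.00), and in 20 genes every KO value lay above every WT value (8.71% of all genes). Of the 29, 14 had an unadjusted p under 0.05 (16.1% of all genes). Mcm6 alone passed (1.44, limma adjusted p = 0.0204). Its call was lost without KO replicate 3 or any WT replicate (adjusted p 0.0611 to 0.0873). The part of these markers in the values below was not tested. Over all genes 4.38% passed limma's threshold. Of 8 pDC markers measured, 2 fell and 0 rose in KO (median difference -0.46), and of 7 macrophage markers 2 fell and 0 rose (median -1.47). Of 6 conventional dendritic cell markers 2 rose and 1 fell, and of 4 T cell markers 0 rose and 1 fell. Among 6 NK cell and 3 erythroid markers limma called 0 (2 and 1 had an unadjusted p under 0.05). Of 7 B cell markers 3 rose, with summed levels of 38.7 to 41.1 in KO and 34.5 to 36.1 in WT, and of 6 plasma cell markers 2 rose, with summed levels of 42.7 to 47.4 in KO and 36.5 to 41.4 in WT. The plasma cell calls were Prdm1 (3.49) and Sdc1 (2.48), and 3 of the 6 plasma cell markers had positive differences, with the lowest at -0.97. The 9 neutrophil markers summed to 50.2 to 79.3 in KO and 42.5 to 53.7 in WT, and 0 passed limma's threshold (0 had an unadjusted p under 0.05).

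The 5 sequences that follow are shown because they stand for Rpl12 and Rpl3l, whose probe sets passed the threshold, and for the promoter elements compared below. The name of the Rpl12 probe set is uncertain, as described below. Each covers 100 bases before the RefSeq start and the first 10 bases from it (build GRCm38.p6, 5′ to 3′ on the gene's strand). For Rpl3l, with 2 starts listed, the most upstream was used. Capitals mark copies of CCGGAA (or its reverse complement TTCCGG), the core that ETS factors such as GABP bind, and of CACGTG, the E-box that MYC and MAX bind.
Rpl12, chr2:32961612-32961721, plus strand: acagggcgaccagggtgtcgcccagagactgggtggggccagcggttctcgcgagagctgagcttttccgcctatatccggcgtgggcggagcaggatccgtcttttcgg
Rpl3l, chr17:24727726-24727835, plus strand: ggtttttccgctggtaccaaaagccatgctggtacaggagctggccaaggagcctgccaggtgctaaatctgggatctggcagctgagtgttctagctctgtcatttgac
Rps10, chr17:27635235-27635344, minus strand: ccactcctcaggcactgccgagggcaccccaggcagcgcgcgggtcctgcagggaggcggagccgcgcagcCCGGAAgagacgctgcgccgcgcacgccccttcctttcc
Rpl27, chr11:101442145-101442254, plus strand: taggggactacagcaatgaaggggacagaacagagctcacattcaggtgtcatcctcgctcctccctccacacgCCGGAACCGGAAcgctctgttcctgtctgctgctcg
Rpl23, chr11:97782430-97782539, minus strand: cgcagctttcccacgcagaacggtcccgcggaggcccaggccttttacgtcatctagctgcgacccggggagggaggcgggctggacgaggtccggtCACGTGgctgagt

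Few ribosomal protein genes differed between KO and WT pDCs past the threshold. Of the 61, 1 rose and 1 fell by limma at a Benjamini-Hochberg adjusted p of 0.05 over all genes. Rpl12 rose by 0.93 log2 units and Rpl3l, a paralog, fell by 1.16. The share that passed was 3.28%, and over all genes tested it was 4.38% (2.3% higher and 2.08% lower in KO). Rpl12 and Rpl3l had mean signals of 7.24 and 6.13, and of the 50 members with a mean signal above 9 limma called 0. Of all 997 genes above the 95th percentile of mean signal 7.92% passed. Among the members 8 had an unadjusted p under 0.05 (16.1% of all genes did). The median difference of the members was 0.07 log2 units, against -0.04 over all genes. Of the 61 differences 43 were positive (70.5%, against 41.8% of all genes). Among the 997 genes above the 95th percentile of mean signal the median was 0.05, and 55.4% of differences were positive. The direction of the members' differences varied between scalings. After quantile normalization of the arrays the median was -0.01 and 26 of the 61 differences were positive (47.7% of all genes). After median centring it was 0.08 and 46 were positive (44.4% of all genes). Quantile normalization sets values of equal rank equal, and 48 members had a mean signal at or above the 95th percentile. It can therefore move the members' differences by itself, toward 0 or away from it. Which scaling gives their direction was not tested.

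**Figure D1:**
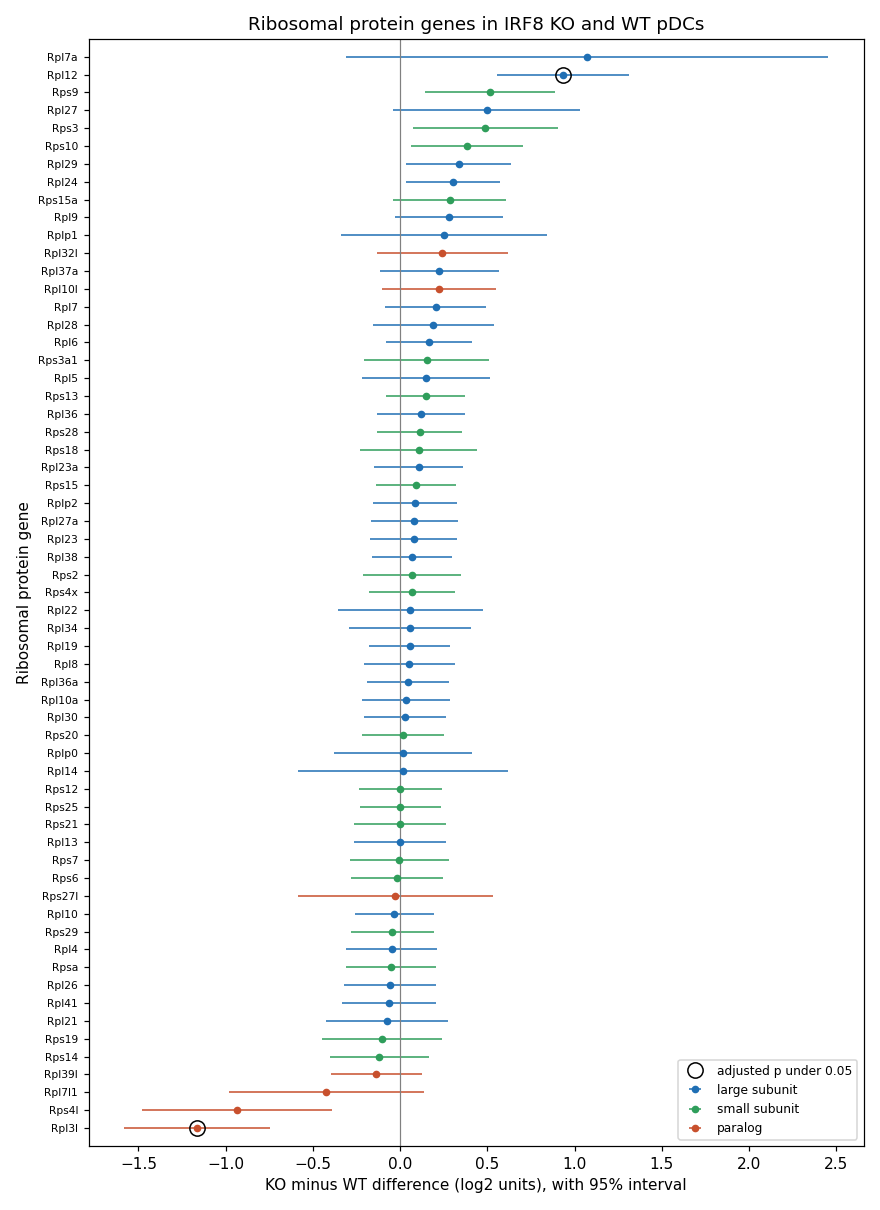
KO minus WT difference of each of the 61 ribosomal protein genes (log2 units, horizontal axis) with the 95% interval of the limma fit, coloured by subunit or paralog and sorted by size. Rpl12 and Rpl3l, circled, passed the adjusted threshold of 0.05, and 56 of the 61 points lie within 0.5 log2 units of 0. Over all genes 17659 of 19937 did.

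Most differences were small as well as uncalled, as they were over all genes. In 56 of the 61 genes the difference was at most 0.5 log2 units (1.41-fold) in either direction. Over all genes it was so in 17659 of 19937. For 39 genes (63.9%) the whole 95% interval lay within 0.5 log2 units of 0, so a larger change of those probe sets' values was outside their intervals, while over all genes this held for 10570 of 19937. The groups did not overlap in 11 members, 9 with KO above and 2 with KO below (18.0%). Over all genes the groups did not overlap in 20.4%, with KO above in 8.71% and KO below in 11.7%. The brightness of the probe sets limits these intervals in one respect: 48 members had a mean signal at or above the 95th percentile of all genes, and 35 lay above 12 log2 units in a table whose highest value was 13.93, and whether such bright signals compress a change was not tested.

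**Figure D2:**
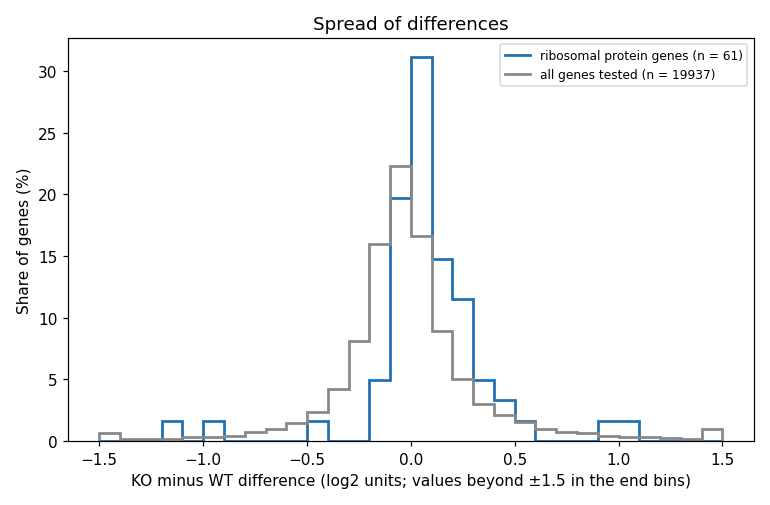
Share of genes (%, vertical axis) in bins of the KO minus WT difference (log2 units, horizontal axis) for the 61 ribosomal protein genes and for all 19937 genes tested. Both curves peak near 0, with medians of 0.07 for the ribosomal protein genes and -0.04 for all genes.

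The subunits gave similar values. Among 33 large subunit genes 1 rose and 0 fell, with a median difference of 0.08 and a range of -0.08 to 1.07 (3 had an unadjusted p under 0.05). Among 21 small subunit genes limma called 0, 3 had an unadjusted p under 0.05, the median was 0.07 and the range -0.12 to 0.51. The 7 paralogs had a median of -0.14 and a range of -1.16 to 0.24, with 0 rises and 1 fall. The median shift of the 61 genes from the WT mean was 0.12, 0.04 and 0.02 log2 units in KO replicates 1 to 3, and 0.09, 0.00 and -0.08 in WT replicates 1 to 3. In both genotypes the array numbered 1 was the highest, and the KO and WT ranges of this shift overlapped.

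Rpl12 encodes a large subunit protein at the base of the stalk, where elongation factors dock. It measured 7.43, 7.72 and 7.96 log2 units in KO replicates 1 to 3, against 6.64, 6.72 and 6.95 in WT replicates 1 to 3. Every KO value lay above every WT value. The difference was 0.93 (SE 0.16, 1.91-fold, limma adjusted p = 0.0199, exact permutation p = 0.10, the smallest that 3 against 3 arrays allow). Its call was lost without WT replicate 1, WT replicate 2, KO replicate 2 or KO replicate 3 (adjusted p 0.0657 to 0.0858). The Rpl12 probe set lists no RefSeq transcript of that gene, so the rise belongs to the probe set and its name is uncertain. Of 7 further probe sets that list Rpl12 beside other symbols, 0 passed in a limma fit of all probe sets (1 had an unadjusted p under 0.05), where 1.4% of all probe sets passed, and their differences ran from 0.02 to 0.72 with a median of 0.09.

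Several other subunit genes had KO values above every WT value without passing the threshold. Rps9, which lines the mRNA entry channel of the small subunit, measured 12.02, 12.16 and 12.37 in KO and 11.84, 11.78 and 11.38 in WT, a difference of 0.51 (SE 0.16, limma adjusted p = 0.15). Rps3, another protein of the mRNA entry site, measured 10.31, 10.33 and 10.91 in KO, against 10.09, 10.10 and 9.90 in WT (difference 0.49, SE 0.18, limma adjusted p = 0.222). Rps10, a target of the ubiquitin ligase that marks stalled ribosomes, measured 12.73, 12.75 and 12.82 in KO, against 12.65, 12.22 and 12.28 in WT (difference 0.38, SE 0.14, limma adjusted p = 0.213). In Rps10 the WT array numbered 1 lay close to the KO values, and its second probe set gave a similar difference of 0.40. The second probe set of Rps9 gave 0.10. The other 5 genes of this kind, named because they complete the count of 9, were Rpl29 (0.34), Rpl24 (0.30), Rpl6 (0.17), Rps13 (0.15) and Rps15 (0.09).

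In Rpl7a and Rpl27, which also had large differences, the groups overlapped because of a single array, and the call depended on it. Rpl7a, a large subunit protein, measured 5.86, 8.14 and 8.04 in KO, against 5.97, 6.90 and 5.96 in WT, so that KO replicate 1 was as low as WT while KO replicates 2 and 3 were above all WT arrays. Its difference was 1.07 (SE 0.59, limma adjusted p = 0.458), and without KO replicate 1 it was 1.81 (adjusted p = 0.00991). Its other 2 probe sets differed by -0.03 and -0.05, and the average over all 3 by 0.33. The 3 probe sets had mean signals of 6.81, 5.78 and 3.75, while 35 members lay above 12. Which transcripts these 3 read was not tested. Rpl27, a large subunit protein, measured 12.93, 12.62 and 12.71 in KO, against 12.80, 12.08 and 11.91 in WT (difference 0.50, SE 0.23, limma adjusted p = 0.357). Here WT replicate 1 was at the KO level, and without it the difference was 0.76 (adjusted p = 0.0466).

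**Figure D3:**
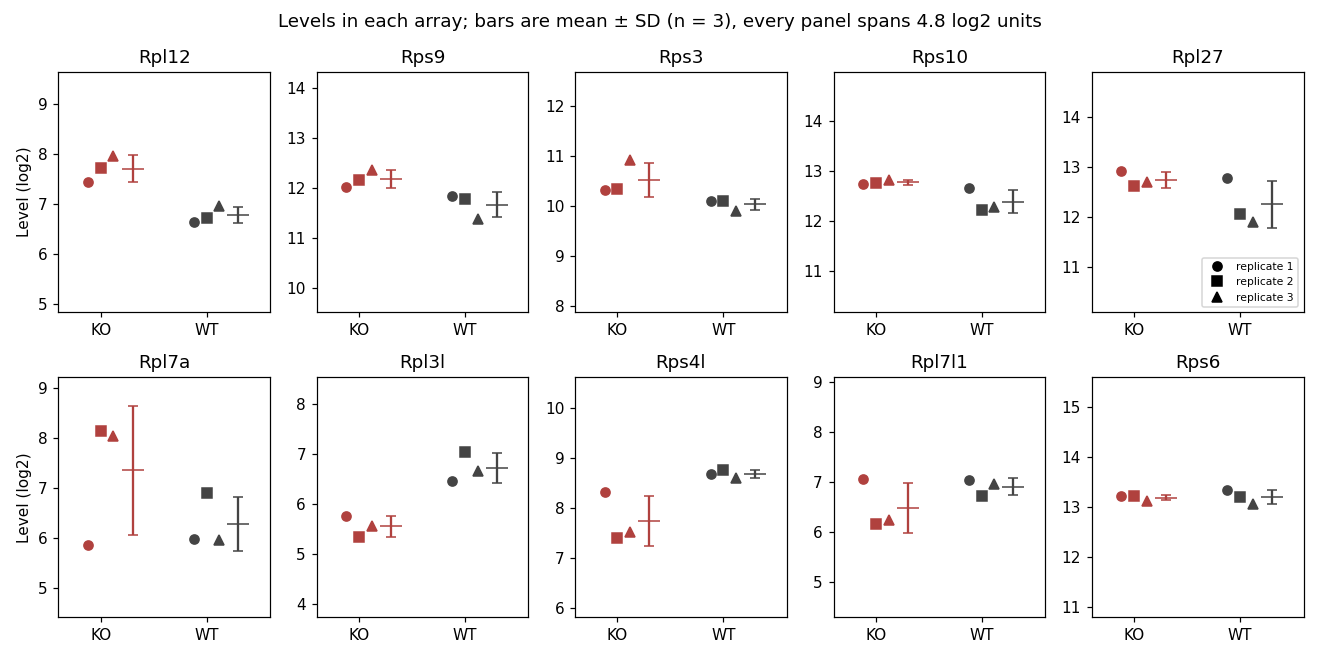
Level (log2, vertical axis) of 10 ribosomal protein genes in each KO and WT array, with marker shapes for replicates 1 to 3 and bars for mean ± SD (n = 3). Rpl12 and Rpl3l show no overlap between the groups, Rpl7a and Rpl7l1 have a KO replicate 1 at the WT level, and Rps6 lies between 13.07 and 13.34 in all 6 arrays.

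The genes with a role of their own in the ribosome or outside it showed no call. The stalk genes, whose products recruit elongation factors, differed by 0.02 for Rplp0, 0.25 for Rplp1 and 0.08 for Rplp2 (limma adjusted p 0.729 to 0.981). Rplp1 measured 13.09, 12.70 and 12.91 in KO, against 13.24, 12.46 and 12.24 in WT, with the array numbered 1 highest in both groups. Rpsa, a small subunit protein also known as a laminin receptor precursor and needed for the human spleen to form, differed by -0.05 (95% interval -0.31 to 0.20). Rpl5, which with 5S ribosomal RNA binds MDM2 when ribosome assembly fails, differed by 0.15 (95% interval -0.22 to 0.52). Rps6, the substrate of the S6 kinases, measured 13.21, 13.22 and 13.12 in KO, against 13.34, 13.20 and 13.07 in WT, a difference of -0.02 (95% interval -0.28 to 0.25). Rps19 and Rps14, whose loss in humans causes Diamond-Blackfan anaemia and the anaemia of 5q deletion, differed by -0.10 and -0.12 (limma adjusted p = 0.824 and 0.727). Rpl22, which is needed for T cell development in mice, differed by 0.06 (95% interval -0.36 to 0.47). When probe sets of a gene were averaged, the signs of Rps14, Rpsa and Rps6 turned, to 0.26, 0.26 and 0.14, and Rpl5 differed by 0.60 (limma adjusted p 0.343 to 0.701).

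The paralogs held the lowest values. Rpl3l is the striated muscle paralog of Rpl3. It measured 5.76, 5.33 and 5.55 in KO, against 6.45, 7.03 and 6.65 in WT, and every KO value lay below every WT value. It fell by 1.16 log2 units (SE 0.18, 2.24-fold, limma adjusted p = 0.0119, exact permutation p = 0.10). The call was lost without WT replicate 3, KO replicate 2 or KO replicate 3 (adjusted p 0.0502 to 0.0552), with differences of -1.20 to -1.06. Rpl3l has a single probe set, which lists a RefSeq transcript of the gene.

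Rps4l, an autosomal paralog of the X-linked Rps4x, measured 8.32, 7.40 and 7.50 in KO, against 8.67, 8.76 and 8.60 in WT. The groups did not overlap, and KO replicate 1 lay nearest to WT. The difference was -0.93 (SE 0.23, limma adjusted p = 0.0779). Without KO replicate 1 it fell by 1.22 (adjusted p = 0.00179). Its second probe set gave -0.65. Rps4x itself, the gene for the same protein position in the small subunit, differed by 0.07 (95% interval -0.18 to 0.31).

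Rpl7l1, related to Rpl7 and active in early assembly of the large subunit, measured 7.06, 6.16 and 6.24 in KO, against 7.04, 6.73 and 6.96 in WT. KO replicate 1 lay at the WT level. The difference was -0.42 (SE 0.24, limma adjusted p = 0.47), and without KO replicate 1 it fell by 0.71 (adjusted p = 0.0249). Rpl7 differed by 0.20 (95% interval -0.09 to 0.49). The testis paralogs Rpl10l and Rpl39l had low signals, 4.35 ± 0.07 in KO and 4.12 ± 0.23 in WT for Rpl10l and 4.11 ± 0.12 in KO and 4.25 ± 0.07 in WT for Rpl39l (SD, n = 3 each), and differed by 0.22 and -0.14 (limma adjusted p = 0.524 and 0.646). Rpl10 and Rpl36a, both X-linked, differed by -0.03 and 0.05, and by 0.23 and -0.03 when probe sets were averaged. Rps27l, a p53-induced paralog of Rps27, measured 10.37, 9.61 and 9.58 in KO, against 10.18, 9.70 and 9.76 in WT (difference -0.03, limma adjusted p = 0.977), again with the array numbered 1 highest in both groups.

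Many ribosomal protein genes were read by more than 1 probe set, since 193 single-symbol probe sets shared the 61 symbols, up to 10 per gene. Fitted as rows of their own, 1 of the 193 rose and 1 fell, those of Rpl12 and Rpl3l, where 3.96% of all single-symbol probe sets passed. Their median difference was 0.11 log2 units, against -0.03 over all single-symbol probe sets. Of the 38 genes with several probe sets, 19 had only positive differences, 2 only negative ones and 17 both. The differences within a gene spread over a median of 0.34 log2 units and over more than 1 unit in 5 genes, which were Rpl13, Rpl5, Rpsa, Rpl10 and Rpl7a, named after their values were seen.

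Among these probe sets the bright ones differed little and the dim ones more. Of the 70 probe sets with a mean signal of at least 12, 0 differed by more than 0.5 log2 units, and their range was -0.12 to 0.50. Of the 34 between 8 and 10, 23.5% differed by more than 0.5, and of the 42 below 8, 23.8% did. Over all single-symbol probe sets, bright and dim together, this share was 11.8%. Among genes with a mean signal above the median, 1845 of 9968 differed by more than 0.5. Above the 95th percentile 185 of 997 did. No share was taken over all probe sets of the same signal bands. In all, 20 probe sets lay above 0.5 and 3 below -0.5.

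**Figure D4:**
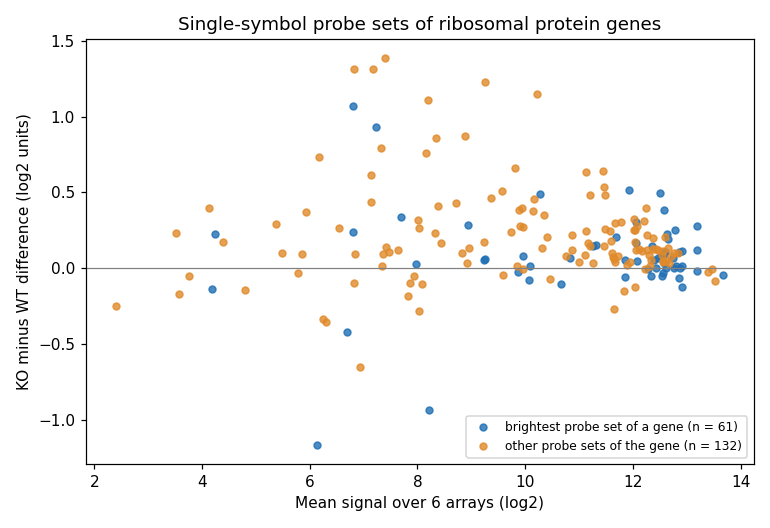
KO minus WT difference (log2 units, vertical axis) against mean signal over the 6 arrays (log2, horizontal axis) for the 193 single-symbol probe sets of ribosomal protein genes, with the brightest of each gene and the other 132 in separate colours. The 70 probe sets at or above 12 lie between -0.12 and 0.50, and the dimmer ones reach 1.39 and -1.16.

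Large rises of some dimmer probe sets lay mostly in KO replicates 2 and 3. Over the 34 probe sets between 8 and 10, the median shift in KO replicates 1 to 3 was 0.17, 0.31 and 0.20. In WT replicates 1 to 3 it was 0.13, 0.02 and -0.18. Over the 42 below 8 it was -0.02, 0.11 and 0.11 in KO, and 0.04, 0.00 and -0.15 in WT. The next to dimmest of the 9 probe sets of Rpl13 measured 6.45, 8.50 and 9.32 in KO, against 6.72, 6.94 and 6.45 in WT (difference 1.39, limma adjusted p = 0.364). The next to dimmest of the 4 probe sets of Rpl5 measured 6.61, 8.51 and 8.39 in KO, against 6.49, 6.31 and 6.75 in WT (difference 1.32, limma adjusted p = 0.223). In both, KO replicate 1 stood at the WT level. The next to dimmest of the 5 probe sets of Rpsa measured 9.35, 9.99 and 10.26 in KO, against 9.28, 8.21 and 8.43 in WT (difference 1.23, limma adjusted p = 0.101), while its brightest differed by -0.05. Of the 20 probe sets above 0.5, which were chosen for that difference, 5 had a mean signal between 10 and 12. Over the 20 the median shift from the WT mean was 0.17, 1.25 and 1.41 in KO replicates 1 to 3. In WT replicates 1 to 3 it was 0.03, 0.07 and -0.30. Of 19 immediate early and handling stress genes 1 rose and 0 fell (5.26%, against 4.38% of all genes). Their median shift was 0.03, 0.37 and 0.37 in KO replicates 1 to 3, and -0.03, 0.10 and -0.07 in WT replicates 1 to 3. Its part in the probe set values was not tested. Which transcripts each of these probe sets reads was not tested.

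Ribosomal protein promoters were searched for the 2 motifs shown above in RefSeq windows of 250 bases before to 50 after the start, on both strands. Windows were found for 49 of the 61 genes, 58 windows in all, and 12 genes had none. CCGGAA stood in 27 of the 58 windows (46.6%), against 14.9% of all 32851 windows. CACGTG stood in 7 (12.1%), against 7.15% of all windows. The letters of the 2 motifs cannot overlap. The 5 genes with CACGTG differed by 0.02 for Rpl14, 0.05 for Rpl19, 0.08 for Rpl23, 0.06 for Rpl34 and -0.10 for Rps19, and 0 of the 5 passed limma's threshold. Rpl14, Rpl19, Rpl34 and Rps19 hold both motifs. The 26 genes with CCGGAA had a median difference of 0.02 and a range of -0.42 to 0.50, and the others with a window had a median of 0.15. A match is a description of these letters and not evidence of binding.

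Gene groups that work with the ribosome were set beside these values. Of 19 measured genes of elongation factors and other mRNAs that begin like ribosomal protein mRNAs, limma called 0 (4 had an unadjusted p under 0.05), with a median of 0.12. Eef1b2, a subunit of the factor that recharges eEF1A, differed by 0.32 (adjusted p = 0.168) and Vim, a filament protein, by 0.81 (adjusted p = 0.241). Of 76 genes for proteins of the mitochondrial ribosome, 1 rose and 1 fell (2.63%, median -0.07). Mrps6 rose by 0.96 (limma adjusted p = 0.00604) and Mrpl58, a peptidyl-tRNA hydrolase of that ribosome, fell by 0.93 (adjusted p = 0.0118). The call of Mrpl58 was lost without KO replicate 2, WT replicate 2 or WT replicate 3 (adjusted p 0.0521 to 0.0552).

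Genes that build ribosomes, control their mRNAs or belong to the p53 network passed at shares of 3.33% to 5.88% in the 4 lists with a call, against 4.38% of all genes. Of 30 assembly factors and chaperones of ribosomal proteins 0 rose and 1 fell (3.33%, median -0.08), and of 38 genes of RNA polymerase I and rRNA processing 1 rose and 1 fell (5.26%, median 0.01). The single fall of the first list was Rpf2 (-0.55, limma adjusted p = 0.0443), which helps place the 5S particle that holds Rpl5 and Rpl11, and its call was lost without any of 5 single arrays, all but KO replicate 1 (adjusted p 0.0632 to 0.171), with a variance trend (0.0857) and without both arrays numbered 1 (0.0788). The second list's calls were Dkc1, a pseudouridine synthase (0.84, limma adjusted p = 0.00811), and Fbl, a methyltransferase of rRNA (-1.06, adjusted p = 0.0205), and the call of Fbl was lost without KO replicate 2 or 3 or WT replicate 1 or 3 (adjusted p 0.0665 to 0.0857) and with averaged probe sets (difference -0.47, adjusted p = 0.0815). Of 27 genes of mTOR signalling and mRNA cap control, 1 rose: Eef2k, the kinase that slows elongation by phosphorylating eEF2, by 0.85 (limma adjusted p = 0.0224). That call was lost without KO replicate 3 or any of the 3 WT replicates (adjusted p 0.0526 to 0.0928), without both arrays numbered 1 (0.0531) and with averaged probe sets (difference 0.55, adjusted p = 0.138). In that list 9 of the 27 genes had an unadjusted p under 0.05 and the groups did not overlap in 40.7%, with KO above in 8 genes and KO below in 3, against 16.1% and 20.4% of all genes. Of 17 p53 network genes 1 rose: Pmaip1, a p53-induced BH3 protein, by 0.57 (adjusted p = 0.0491), lost without any of 5 single arrays, all but KO replicate 1 (adjusted p 0.0847 to 0.191), after median centring (0.0795) or quantile normalization (0.083), with a variance trend (0.0878) and without both arrays numbered 1 (0.0657). Of 3 measured snoRNA host genes limma called 0 (1 had an unadjusted p under 0.05). Gas5, whose introns hold snoRNAs, differed by 0.15 (adjusted p = 0.588) and Snhg5 by 0.53 (adjusted p = 0.279).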

How the data were processed

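Total RNA of sorted pDCs went through NuGen PICO SL amplification and biotin labelling before Affymetrix hybridisation, per the labels' protocols. The deposited values are log2 levels per probe set, the scale being read from the values; how the authors corrected and normalized them is not stated in the labels. Of 34760 probe sets, 21640 had 1 symbol in the platform annotation, 1321 several and 11799 none; 21553 matched RefSeq genes (GRCm38.p6) by Entrez identifier, and 0 symbols changed. The brightest probe set stood for each of 19937 genes. Probe sets of 58 members list a RefSeq transcript of their gene; those of Rpl12, Rplp2 and Rps3a1 do not. Promoter sequences are RefSeq's.

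KO and WT were compared with limma 3.58.1 (R 4.3.3; lmFit, eBayes, no covariates) on the deposited log2 values, two-sided, with Benjamini-Hochberg adjustment over all genes and no filter on dim probe sets. Exact permutation tests used all 20 relabellings. On simulated data for this comparison (19937 genes, 200 changed, 5 runs) the test found 10.4% of changes of 0.5 log2 units, 65.6% of 1 and 94.0% of 2. The number of arrays limits the precision. Members and gene lists were chosen with earlier results of these data known. Named were the members past the threshold, the 6 largest rises and falls, genes of fixed roles, and the measured genes of 8 listed paralog pairs (Rpl32l is in none). From each list of genes linked to ribosomes, their mRNAs or p53, up to 4 calls were named, or the 2 smallest p-values. Of the calls in the other lists, Myc, Mcm6, Prdm1 and Sdc1 were named and the rest were not. Fits over single probe sets and over all probe sets, and a median over members with a signal above 9, were added after the data were seen. Figures used matplotlib 3.10.9.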

Additional observations from a re-analysis of the deposited data

How the results depend on the processing

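Of the 61 members, 1 higher and 1 lower gene were called with quantile normalization, median centring, the mean of probe sets, the variance trend and (of 59) among bright genes alone. RefSeq-matched probe sets gave 0 higher and 1 lower gene, since the Rpl12 probe set is left out by construction. Array weights and the replicate number as a block each gave 1 higher and 2 lower genes, and leaving out both arrays numbered 1 gave 3 and 3. Leaving out single arrays gave 0 to 2 higher and 0 to 3 lower members; the most came without KO replicate 1, and 0 of either came without KO replicate 2 or without KO replicate 3. The median difference was -0.013 with quantile normalization and 0.152 with the mean of probe sets, and 0.032 to 0.111 without single arrays. Over all genes, array weights gave 716 higher and 647 lower, the replicate block 707 and 655, and leaving out both arrays numbered 1 gave 741 and 641. Without single arrays the counts were 249 to 780 higher and 202 to 719 lower. The cause was not tested. The labels do not say what the replicate numbers mean. Deviations of same-numbered arrays correlated at 0.379, 0.097 and 0.252 over genes, and not every array correlated best with its own number, so the numbers were not taken to pair the arrays. Whether both arrays numbered 1 share a technical factor was not tested. Rps4l passed with the block (adjusted p = 0.0398), with array weights (0.0122), without KO replicate 1 (0.00179) and without both arrays numbered 1 (0.00404). Without both arrays numbered 1, Rpl7a (0.0193), Rpl27 (0.0353) and Rpl7l1 (0.0468) passed too. No detection calls were used, so a dim signal is not called absent.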

Other observations

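Probe sets that list a ribosomal protein symbol beside other symbols belong to no gene above. There were 207 of them. In a limma fit of all 34760 probe sets 0 of the 207 passed an adjusted p of 0.05 and 18 had an unadjusted p under 0.05, where 1.4% of all probe sets passed. Their median difference was 0.14 log2 units, against 0.11 for the 193 single-symbol probe sets and -0.03 for the other 34360. Of the 207 differences 80.7% were positive, against 44.4% for the other 34360. In the same fit 0 of the 193 passed, which differs from the 2 calls among single-symbol probe sets alone. The median shift of the 207 from the WT mean was 0.13, 0.17 and 0.12 in KO replicates 1 to 3, and 0.08, 0.01 and -0.08 in WT replicates 1 to 3.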
